A study of Mus musculus with 6 samples.

Results

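Chemokines are small secreted or membrane-bound proteins that guide cell movement, and 10 of their genes were followed here: Cxcl1, Cxcl2, Cxcl5, Cxcl10, Cxcl12, Cxcl16, Ccl2, Ccl5, Ccl7 and Cx3cl1. They were picked by symbol, as 10 of the 14769 gene annotations in the deposited files. The cells were Mvt1, an established line of mammary carcinoma cells from FVB/N mice. They were stained for CD24, a glycoprotein anchored in the cell surface, and sorted into CD24- cells, which lacked surface CD24, and CD24+ cells. RNA came from 3 plates of adherent cells in each group, grown in the same serum-supplemented DMEM, with no drug, time course or engineered allele named for either group. The comparison asks which chemokine transcripts differ between these groups of one line, in culture and with no host cells present.

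The 6 libraries held 9046025 to 25692147 mapped reads of 47 nt, of which 6491833 to 19100846 were annotated to genes. Levels are given as CPM, gene reads scaled by TMM to a common library total, and differences as log2 fold-changes of CD24+ over CD24- from edgeR's quasi-likelihood test. CD24+ replicate 1 was the shallowest library. Cd24a itself had 10.2 ± 2.79 CPM in CD24- and 77.1 ± 7.31 CPM in CD24+ libraries (SD, n = 3 each). Of 10 luminal epithelial markers, the keratins Krt8 and Krt18 were abundant in both groups, while Epcam had 6 reads and Cdh1 had 2 over all libraries.

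Chemokines act on receptors that span the membrane several times and couple to G proteins. Cxcl1, Cxcl2 and Cxcl5 attract neutrophils through Cxcr2. Ccl2 and Ccl7 attract monocytes through Ccr2, Ccl5 attracts T cells and monocytes, and Cxcl10 attracts activated T cells through Cxcr3. Cxcl12 signals through Cxcr4 and is also bound by Ackr3, which removes it. Cxcl16 and Cx3cl1 are made as membrane-spanning proteins that proteases such as Adam10 and Adam17 can release, and their receptors are Cxcr6 and Cx3cr1. In mammary tumors such ligands are known mainly for drawing in leukocytes. Many chemokine promoters respond to NF-kB, and that of Cxcl10 also to interferons.

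The start regions of Cxcl1 and Cxcl2 are shown because these genes lie side by side on chromosome 5, share an NF-kB motif and differed far in read number. That of Cxcl10 is shown for its interferon-type element. Each runs from base -250 to base -31 before the RefSeq start (GRCm38.p6), 220 bases in the direction of transcription. Capitals mark matches, on either strand, to the searched forms of the NF-kB motif or to the core of the interferon-stimulated response element. The Cxcl1 window is chr5:90890995-90891214 on the plus strand, that of Cxcl2 is chr5:90903649-90903868 on the plus strand and that of Cxcl10 is chr5:92348920-92349139 on the minus strand.
Cxcl1: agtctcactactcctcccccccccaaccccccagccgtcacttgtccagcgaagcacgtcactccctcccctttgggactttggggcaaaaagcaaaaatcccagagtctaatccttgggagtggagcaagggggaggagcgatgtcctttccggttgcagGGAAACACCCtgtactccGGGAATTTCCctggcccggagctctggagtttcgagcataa
Cxcl2: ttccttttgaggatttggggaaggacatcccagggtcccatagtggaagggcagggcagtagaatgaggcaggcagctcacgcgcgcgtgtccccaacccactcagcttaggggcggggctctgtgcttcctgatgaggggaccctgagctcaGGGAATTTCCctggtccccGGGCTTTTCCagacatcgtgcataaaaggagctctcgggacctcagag
Cxcl10: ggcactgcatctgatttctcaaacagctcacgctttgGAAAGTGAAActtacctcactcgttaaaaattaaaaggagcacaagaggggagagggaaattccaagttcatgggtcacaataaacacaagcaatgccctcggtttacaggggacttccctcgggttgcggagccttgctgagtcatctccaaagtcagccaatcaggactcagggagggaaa
The NF-kB motif in its stricter form, with no free base, stood at bases -71 to -62 of Cxcl1 and at -97 to -88 of Cxcl2. Over 32851 promoter windows of the same length it was found in 26, or 0.0792%. The looser form, which leaves the bases at the middle free and takes in the stricter one, was found in 1.17% of windows and once more in each of Cxcl1 and Cxcl2. The interferon-type core was found in 2.63% of windows and stood at -213 to -204 of Cxcl10. Windows were at hand for 5 of the 10 genes, and those of Cxcl12 and Cx3cl1 held no match. Other forms of the NF-kB motif were not searched, so lower case, as in the Cxcl10 window, does not show that an NF-kB site is absent. These are matches of letters, and no binding was measured.

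In CD24+ cells Cxcl5 was higher and Cxcl1, Ccl2 and Cxcl16 were lower, while the differences of Ccl7 and Cx3cl1 did not pass the test. Cxcl2, Cxcl10, Cxcl12 and Ccl5 had too few reads for edgeR's filter and were not tested. At an adjusted p below 0.05, 1 of the 6 tested members was called higher, against 23.8% of the 11125 genes tested, and 3 were called lower, against 22.3%. Together 4 of the 6 were called, against 46.1% of all tested genes. The groups did not overlap for 5 of the 6, against 57.3% of all tested genes. The median log2 fold-change was -0.62 over the 6 members and 0.02 over all tested genes. An exact permutation test of 3 against 3 libraries cannot give a p below 0.1, so no such test was used. Plates are taken as separate samples of each sorted group, and a p-value measures only the spread between them. In these bulk libraries, fewer cells that make a transcript and less of it per cell cannot be told apart.

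**Figure D1:**
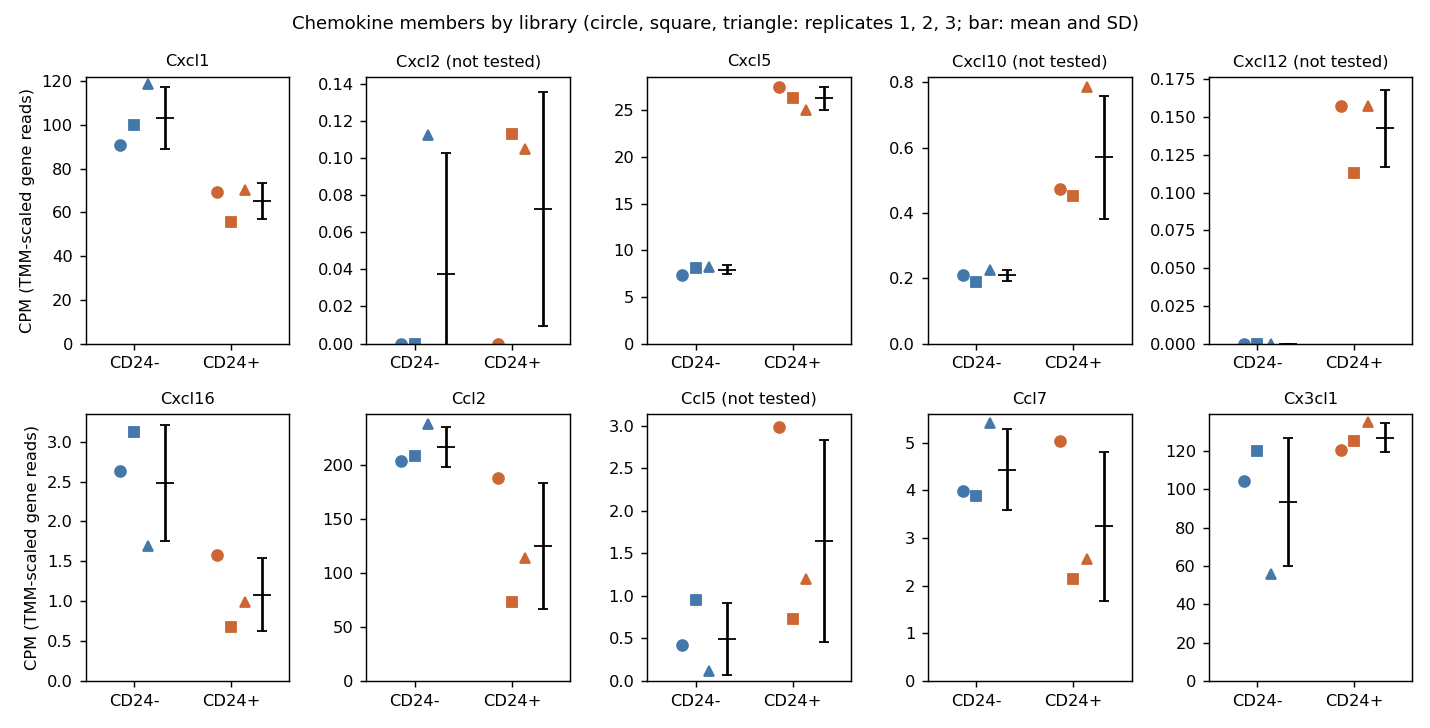
CPM of each of the 10 chemokine genes (vertical axis, own scale in each panel) in the 3 CD24- (blue) and 3 CD24+ (orange) libraries, with the mean and SD beside the points and SD bars cut at 0. Cxcl5 sits between 25.0 and 27.5 CPM in CD24+ and between 7.36 and 8.23 CPM in CD24- libraries, while Cxcl2 and Cxcl12 stay at 0.157 CPM or less in every library.

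Among the neutrophil attractants, Cxcl5 had 7.36, 8.15 and 8.23 CPM in CD24- replicates 1, 2 and 3 and 27.5, 26.4 and 25.0 CPM in CD24+ replicates 1, 2 and 3. Every CD24+ library stood well above every CD24- library, and the values within each group lay close together. This 3.31-fold rise of Cxcl5 corresponds to 1.73 on the log2 scale (standard error 0.12, adjusted p = 1.77e-06, edgeR). Cxcl1 went the other way, with 91.1, 99.9 and 118.8 CPM in CD24- and 69.5, 55.6 and 70.3 CPM in CD24+ libraries. Its groups did not overlap, and the lowest CD24- value lay above the highest CD24+ value. For Cxcl1 edgeR gave -0.67 on the log2 scale, with a standard error of 0.12 and an adjusted p of 0.00142. Cxcl2, whose start region above carries the same motif as that of Cxcl1, had 0, 0 and 1 reads in CD24- and 0, 2 and 2 reads in CD24+ libraries. These 5 reads stand beside 5742 reads of Cxcl1. All 5 matched Cxcl2 and no other gene, as did 99.98% of the Cxcl1 reads.

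Of the CC chemokines, Ccl2 had the highest level per kilobase of all 10 members in both groups. It had 204, 209 and 239 CPM in CD24- and 188, 73.6 and 114 CPM in CD24+ libraries. The groups did not overlap, but CD24+ replicate 1 lay close to the CD24- libraries and far from the other CD24+ ones. For Ccl2 edgeR gave a log2 fold-change of -0.81 with a standard error of 0.26 and an adjusted p of 0.0256, and without CD24+ replicate 1 it was -1.22 (adjusted p = 9.64e-04). Its call did not hold without CD24- replicate 3 (adjusted p = 0.0502), without CD24+ replicate 3 (0.086) or under DESeq2 (0.0805). The log2 fold-changes were then -0.75, -0.77 and -0.81. Without CD24+ replicate 2 the log2 fold-change of Ccl2 was -0.55 (adjusted p = 0.0351, edgeR). Taking every distinct sequence as 1 read, it was -0.37 (adjusted p = 0.225, edgeR). Ccl2 is short and had 10947 reads on 1576 distinct sequences. Counting each sequence once shrinks such a fold-change by construction, so the -0.37 is no measure of duplicate reads. Ccl7, which lies next to Ccl2 on chromosome 11, had 3.998, 3.885 and 5.41 CPM in CD24- and 5.03, 2.15 and 2.57 CPM in CD24+ libraries. Its groups overlapped through CD24+ replicate 1. The log2 fold-change of Ccl7 was -0.58 with a 95% interval from -1.28 to 0.13 (adjusted p = 0.16, edgeR), and without CD24+ replicate 1 it was -0.91 (adjusted p = 0.0242). Ccl5 had 4, 10 and 1 reads in CD24- and 19, 13 and 23 reads in CD24+ libraries, or 0.113 to 0.948 CPM and 0.734 to 2.99 CPM, so its groups overlapped. Pooled over libraries the CD24+ to CD24- ratio of Ccl5 was 2.43, with an exact 95% interval from 1.35 to 4.62 that covers counting error only. CD24- replicate 2 held 10 of the 15 CD24- reads of Ccl5, and without it the ratio was 4.63 (1.87 to 14.8). The interval took in 1 without CD24- replicate 3 (0.985 to 3.495) and without CD24+ replicate 1 (0.997 to 3.67). In CD24+ replicate 1 each of Ccl2, Ccl7 and Ccl5 stood at its highest CD24+ value, and the values of each gene without it are given above.

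**Figure D2:**
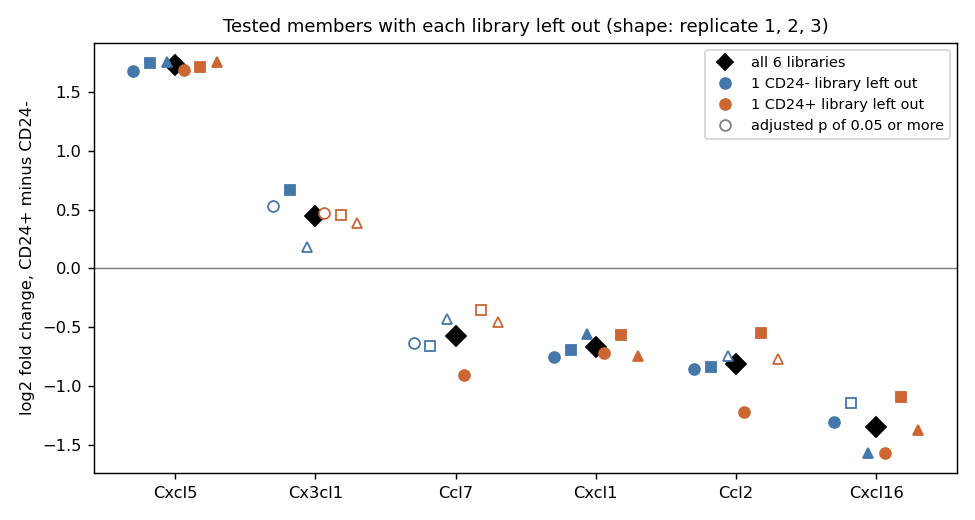
Log2 fold-change (vertical axis, CD24+ over CD24-) of the 6 tested members with all 6 libraries (diamonds) and with each library left out in turn (blue for CD24-, orange for CD24+, shape for the replicate). Open symbols have an adjusted p of 0.05 or more; Cxcl5 stays between 1.68 and 1.75, while Ccl2 ranges from -1.22 to -0.55.

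Of the membrane-bound members Cxcl16 passed the test and Cx3cl1 did not, and the difference between them was not tested. Cxcl16 had 2.63, 3.13 and 1.69 CPM in CD24- and 1.57, 0.678 and 0.995 CPM in CD24+ libraries. The gap between the groups was narrow, with the lowest CD24- library just above the highest CD24+ one. Cxcl16 reached the filter level of 1.01 CPM in 3 CD24- libraries and 1 CD24+ library. The CD24- libraries alone were enough to pass it, so its call as lower is not independent of the filter. On 114 reads in all, it had a log2 fold-change of -1.35 with a standard error of 0.36 (adjusted p = 0.011, edgeR). Without CD24- replicate 2 its adjusted p was 0.0573. Of its reads 78.1% matched Cxcl16 alone, the lowest share among the members, and Zmynd15 overlaps its start on the other strand. Counted on reads of a single gene, 1.40 CPM in CD24- replicate 3 fell below 1.90 CPM in CD24+ replicate 1, so the groups then overlapped, with a log2 fold-change of -1.23 (adjusted p = 0.0383).

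Cx3cl1 had 104, 120 and 55.7 CPM in CD24- and 121, 125 and 135 CPM in CD24+ libraries. The groups did not overlap, but by a margin of under 1 CPM, and CD24- replicate 3 stood far below every other library. The log2 fold-change of Cx3cl1 was 0.45 with a 95% interval from -0.03 to 0.92 (adjusted p = 0.115, edgeR). Without CD24- replicate 3 it was 0.18 (adjusted p = 0.131), and without CD24- replicate 2 it was 0.67 (adjusted p = 0.0287). On reads of a single gene, 121 CPM in CD24- replicate 2 lay above 119 CPM in CD24+ replicate 1, so the groups of Cx3cl1 then overlapped. They also overlapped on library totals without TMM. In CD24- replicate 3 Cd24a (6.99 CPM), Cxcr3 (10.0 CPM), Cd68 (43.4 CPM) and Cxcl16 (1.69 CPM) also had their lowest CD24- values. The members Cxcl1 (118.8 CPM), Ccl2 (239 CPM), Ccl7 (5.41 CPM) and Cxcl5 (8.23 CPM) had their highest CD24- values there. The part of that library's state in the value of Cx3cl1 was not tested.

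Cxcl10 and Cxcl12 were close to the limit of detection. Cxcl10 had 2 reads in each CD24- library and 3, 8 and 15 reads in CD24+ libraries, which gives 0.190 to 0.225 CPM and 0.452 to 0.786 CPM. Pooled, the CD24+ to CD24- ratio of Cxcl10 was 2.87 with an exact 95% interval from 1.15 to 8.52 for counting error only. That interval took in 1 without CD24- replicate 2 (0.950 to 10.8) and without CD24+ replicate 3 (0.735 to 7.14). Counted on reads of a single gene its groups overlapped, since CD24+ replicate 1 then had 1 read. Cxcl12 had no read in any CD24- library and 1, 2 and 3 reads in the CD24+ ones. A count of 0 in 1 library allows up to 3 reads, or 0.284 to 0.338 CPM in the CD24- libraries. These limits lie above the CD24+ values of Cxcl12, 0.113 to 0.157 CPM. Single libraries thus leave its difference undecided, and pooled reads of Cxcl12 were not compared.

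Per kilobase of the longest coding GENCODE M21 transcript, the order in CD24- cells began with Ccl2 (267 ± 22.9 CPM per kb), Cxcl1 (108 ± 14.9) and Cx3cl1 (28.2 ± 10.1; SD, n = 3 each). These levels did not overlap. Ccl7 (5.53 ± 1.06 CPM per kb) and Cxcl5 (5.02 ± 0.303) came next and overlapped each other. Below them Ccl5 and Cxcl16 overlapped each other, followed by Cxcl10 and then by Cxcl2 and Cxcl12, which overlapped too. In CD24+ cells the first 3 genes kept that order without overlap, at 154 ± 71.6, 68.3 ± 8.71 and 38.4 ± 2.22 CPM per kb. Cxcl5 came next, at 16.7 ± 0.791 CPM per kb, clear of Ccl7 (4.06 ± 1.95). Ccl7 and Ccl5, Cxcl10 and Cxcl16, and Cxcl2 and Cxcl12 were neighbours that overlapped. Ccl2, Cx3cl1 and Cxcl1 together held 96.3% to 96.5% of the reads of the 10 members in CD24- libraries and 89.3% to 91.2% in CD24+ libraries. Matched to transcripts by sequence, Cxcl1 had 6698 reads against 5742 annotated ones and Cx3cl1 had 8118 against 8323, so levels between genes depend on the annotation too.

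The reads of each member lay on a single chromosome (mm9), for Cxcl1 between 91320289 and 91322141 of chromosome 5, for Cxcl5 between 91188308 and 91190633 of chromosome 5, for Ccl2 between 81849081 and 81850952 of chromosome 11 and for Cx3cl1 between 97296081 and 97306325 of chromosome 8. No single sequence held a large share of them. With each distinct sequence taken once, the log2 fold-changes were -0.37 for Ccl2, -0.45 for Cxcl1, 1.56 for Cxcl5 and 0.39 for Cx3cl1. With all reads they were -0.81, -0.67, 1.73 and 0.45. Ccl2 had 1576 distinct sequences for 10947 reads and Cxcl1 had 1548 for 5742. Counting each sequence once shrinks the fold-changes of such short genes with many reads by construction. The most frequent sequence made up 2.65% of the Ccl2 reads, 1.27% of the Cxcl1 reads, 1.04% of the Cxcl5 reads and 0.397% of the Cx3cl1 reads. Windows of 100 bases were kept at a mean of at least 1 CPM over all libraries. The CD24+ mean was above the CD24- mean in 7 of 7 windows of Cxcl5 and in 31 of 31 of Cx3cl1. It was below in 18 of 18 windows of Cxcl1 and in 15 of 17 of Ccl2. Without CD24- replicate 3 these counts were 26 of 31 for Cx3cl1, 17 of 18 for Cxcl1 and 10 of 17 for Ccl2, and they stayed at 7 of 7 for Cxcl5 whichever library was left out. Windows of one gene share its libraries and are not independent. The kept windows were the same whichever library was left out. Most of the 7 Cxcl5 windows reached 1 CPM only through the CD24+ libraries, so their count is no support for its direction.

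**Figure D3:**
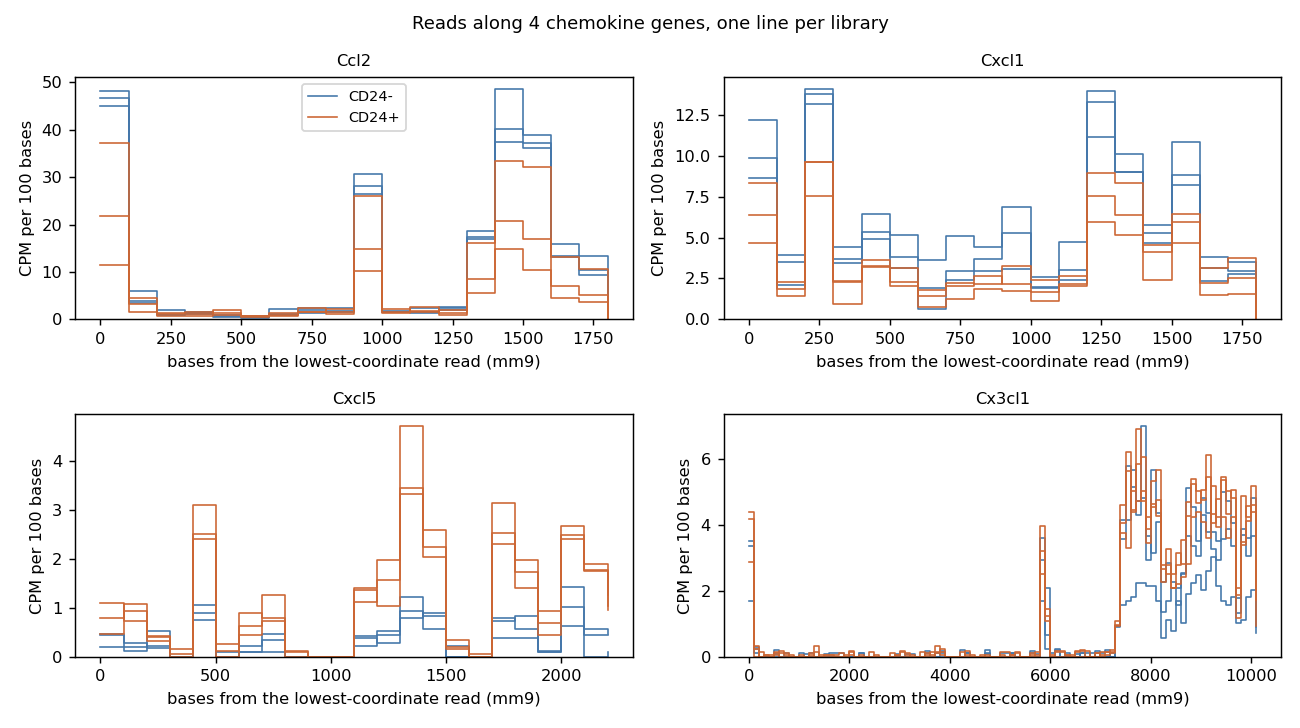
Reads along Ccl2, Cxcl1, Cxcl5 and Cx3cl1 in windows of 100 bases (horizontal axis: bases from the lowest-coordinate read; vertical axis: CPM per window), one line per library, CD24- in blue and CD24+ in orange. The peaks lie at the same places in both groups, and the low blue line of Cx3cl1 is CD24- replicate 3.

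Chemokine genes beside the members on chromosomes 5 and 11 had few reads, apart from Ccl9 beside Ccl5. The chromosome 5 cluster runs in GRCm38 from Cxcl5 (90759360 to 90761624) over Ppbp, Pf4, Cxcl3 and Cxcl15 to Cxcl1 (90891241 to 90893115) and Cxcl2 (90903871 to 90905938). Between Cxcl5 and Cxcl1, Cxcl3 had 32 reads, Ppbp 43, Pf4 19 and Cxcl15 none over all libraries. In the chromosome 11 cluster Ccl2 (82035571 to 82037453) and Ccl7 (82045712 to 82047525) are followed by Ccl11 with 2 reads, Ccl12 with none, Ccl8 with 16 and Ccl1 with none. Further along chromosome 11, Ccl5 (83525778 to 83530518) is followed by Ccl9 (83572919 to 83578636) with 108 reads, Ccl6 with 19, and Ccl3 and Ccl4 with none. The 28 other chemokine ligands listed included 14 with no annotated read, and 2 passed the filter. Ccl9, a ligand of Ccr1, had 2, 0 and 1 reads in CD24- and 21, 33 and 51 reads in CD24+ libraries. Its pooled ratio was 23.2 with an exact 95% interval from 7.71 to 114 for counting error. On reads of a single gene, 6 in CD24- and 127 in CD24+ libraries, the ratio of Ccl9 was 13.9 (6.20 to 38.5), and it was 46.8 (8.21 to 1865) without CD24- replicate 1 and 14.7 (4.91 to 72.6) without CD24- replicate 2. Ccl9 reached the filter level of 1.01 CPM in 3 CD24+ and 0 CD24- libraries, so the filter fixed the direction of its call and that call is no support for it. Ccl25 was not called (log2 fold-change 0.49, adjusted p = 0.282, edgeR). Ccl20, chosen after its values were seen, had 0, 0 and 1 reads in CD24- and 22, 3 and 37 reads in CD24+ libraries and did not pass the filter. By CPM, untested Cxcl3, Ccl17 and Ccl27a were also higher in CD24+ libraries without overlap, as 57.3% of tested genes were without overlap in either direction. The pooled ratio of Cxcl3, on 8 CD24- and 24 CD24+ reads, was 1.985 (exact 95% interval 0.863 to 5.11, counting error only). Ccl17 had 0, 2 and 0 reads in CD24- and 2, 4 and 5 in CD24+ libraries. On reads of a single gene its groups overlapped. Ccl27a had 1, 0 and 0 reads against 8, 8 and 14, and 41.9% of its reads matched it alone. Untested Pf4, Ccl8 and Cxcl17 were lower without overlap. Pf4 had 5, 6 and 4 reads in CD24- and 1, 1 and 2 in CD24+ libraries, and Ccl8 had 4, 5 and 4 against 0, 0 and 3. Cxcl17 had 2, 6 and 6 against 0, 3 and 1.

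Of 23 chemokine receptors, 5 passed the filter, and 2 of these were called against 46.1% of all tested genes, 1 higher and 1 lower. Cxcr3, the receptor of Cxcl10, had 20.6, 22.7 and 10.0 CPM in CD24- and 2.67, 2.54 and 3.04 CPM in CD24+ libraries. Every CD24- library was above every CD24+ one. Cxcr3 had a log2 fold-change of -2.69 with a standard error of 0.30 (adjusted p = 4.64e-05, edgeR), and 98.9% of its reads matched Cxcr3 alone. Ccr10, a receptor of Ccl27a and Ccl28, had 0, 3 and 2 reads in CD24- and 7, 20 and 23 reads in CD24+ libraries, a pooled ratio of 6.62 with an exact 95% interval from 2.65 to 21.3 for counting error. The ratio of Ccr10 was 10.5 (2.77 to 89.3) without CD24- replicate 2. Like Ccl9 it passed the filter through the CD24+ libraries alone, so its call as higher is no support for that direction, and on reads of a single gene (46 in all) it did not pass the filter. Ackr3, the scavenger of Cxcl12, had 6.88 ± 0.944 CPM in CD24- and 5.52 ± 1.65 CPM in CD24+ libraries (SD, n = 3 each) and was not called (adjusted p = 0.38, edgeR). Other receptors of the members were at or near 0. Over all libraries Cxcr2 had 6 reads, Cxcr4 had 5, Cxcr6 had 9 and Cx3cr1 had 5, and none was annotated to Ccr2. Most reads under Ccr9 and Ackr4 did not match these receptors alone. Of 28056 reads under Ccr9 that were compared with transcripts, 4 matched Ccr9 alone and 8437 matched Hnrnpa1, a nuclear RNA-binding protein gene, alone. Of 232 reads annotated to Ackr4, 9 matched it alone, and 113 matched Acad11, which overlaps it.

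**Figure D4:**
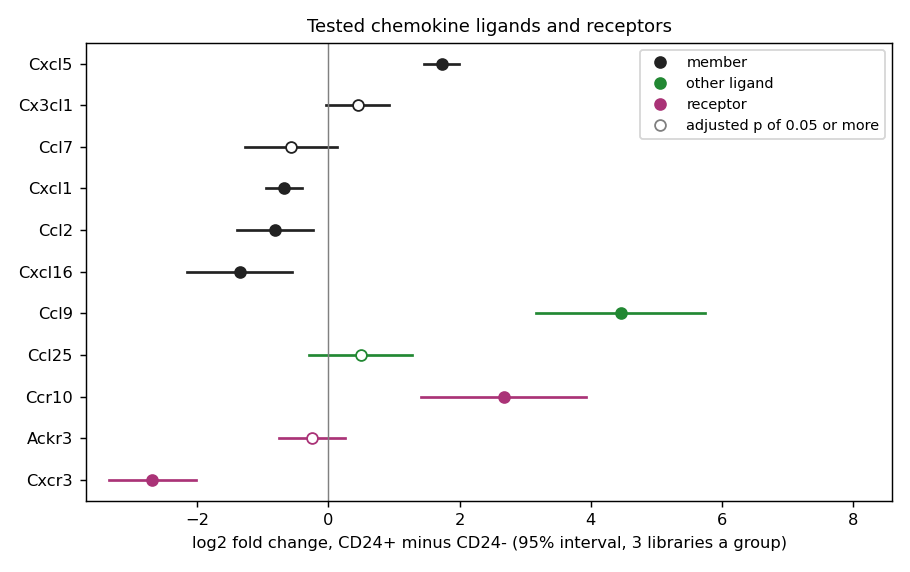
Log2 fold-change (horizontal axis, CD24+ over CD24-, with 95% intervals over 3 libraries a group) of the tested chemokine members (black), other ligands (green) and receptors (purple), without Ccr9 and Ackr4. Open symbols have an adjusted p of 0.05 or more; Ccl9, with 3 reads in all CD24- libraries, stands highest and Cxcr3, at -2.69, lowest; Ccl9 and Ccr10 passed the filter through the CD24+ libraries alone.

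Genes of NF-kB and innate signalling, which can act upstream of many chemokines, were called about as often as genes at large. Of 29 tested, 10 were higher, 3 lower and 16 not called in CD24+ cells, beside 23.8% higher and 22.3% lower over all tested genes. Their median log2 fold-change was 0.12, against 0.02 over all. Nfkbie, which codes for an inhibitor of NF-kB, rose from 2.13 ± 0.491 to 32.1 ± 5.27 CPM (SD, n = 3 each; log2 fold-change 3.89, adjusted p = 2.77e-07, edgeR). Relb, a subunit of the alternative NF-kB pathway, rose from 10.2 ± 0.469 to 30.3 ± 7.28 CPM (log2 fold-change 1.56). Those that fell were Zfp36 (log2 fold-change -0.70), whose protein speeds the decay of cytokine mRNA, Ikbkb (-0.44), an activating kinase, and Nfkbia (-0.43), another inhibitor. The subunits Rela (0.09) and Nfkb1 (0.09) were not called. Of 16 interferon signalling genes 4 were higher, beside 23.8% of all tested genes, and none lower, beside 22.3%, with a median of 0.14. These were Ifngr1 (log2 fold-change 1.49) and Ifngr2 (0.91), the receptor chains of interferon gamma, Ifih1 (1.18), a sensor of double-stranded RNA, and Irf1 (0.74), a transcription factor. No interferon signalling gene had an adjusted p below 0.05 in the lower direction in edgeR.

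Genes for shedding and for holding chemokines at the cell surface were described in the same way. Of 19 listed 16 were tested, of which 9 were higher, 2 lower and 5 not called, beside 23.8% higher and 22.3% lower over all tested genes. Their median log2 fold-change was 0.43, and 1 of the 9, Mmp2, passed the filter through the CD24+ libraries alone. Sdc2, a heparan sulfate proteoglycan, rose from 11.1 ± 0.567 to 129.9 ± 9.06 CPM (SD, n = 3 each; log2 fold-change 3.54, adjusted p = 7.97e-09, edgeR). Hs6st1 (1.99), which adds sulfate to heparan sulfate, rose as well, while Hs2st1 (-0.38), which adds it at another position, and Sdc1 (-0.27), another proteoglycan, fell. The sheddases of Cxcl16 and Cx3cl1 were not called. Adam10 had 333.6 ± 12.1 and 332 ± 20.5 CPM and Adam17 had 123 ± 11.6 and 116 ± 1.41 CPM in CD24- and CD24+ libraries (SD, n = 3 each).

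**Figure D5:**
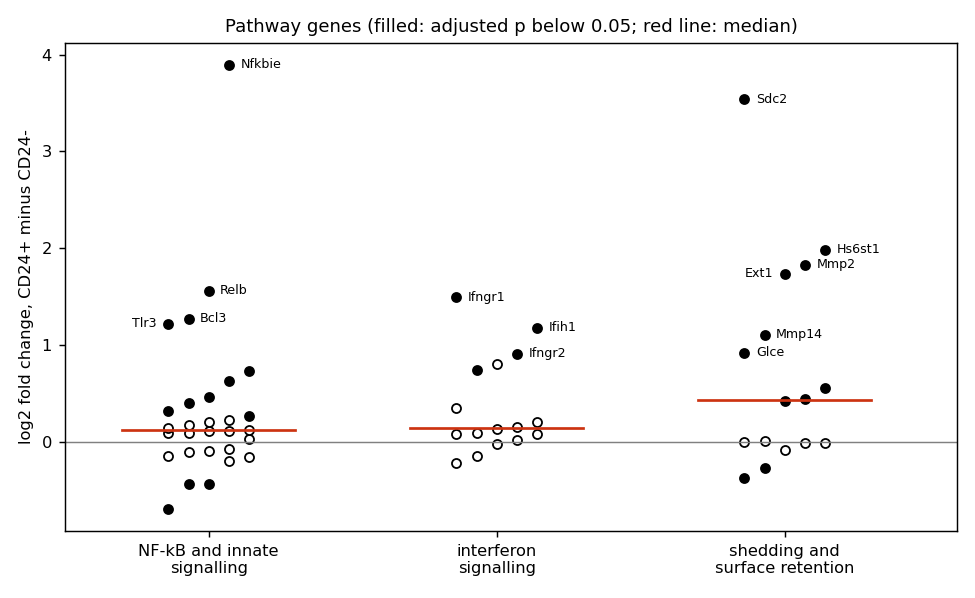
Log2 fold-change (vertical axis, CD24+ over CD24-) of the tested genes in 3 lists, one point per gene, filled where the adjusted p was below 0.05, with the median as a red line. The medians are 0.12, 0.14 and 0.43, and Nfkbie (3.89) and Sdc2 (3.54) stand highest.

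The genes whose centred log2 CPM over the 6 libraries lay nearest to that of Cxcl5 were Alcam (root-mean-square difference 0.035), Lmo4 (0.073), Bdnf (0.076), Sgcb (0.10) and Lpar1 (0.10). Those nearest to Ccl2 were Slc4a11 (0.17), Aif1l (0.19), Krt80 (0.19), F11r (0.20) and Unc13d (0.21). Both searches took in genes that averaged 3 or more on the log2 CPM scale. All 6 libraries and their split into groups are shared by such values.

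Leukocytes make several of these chemokines, and their markers ranged from no reads to a mean of 64.6 CPM for Cd68 in CD24- cells. Ptprc, carried by nearly all leukocytes, had 2 reads over all libraries, and Cd3e and Adgre1 had none. The summed level of 10 leukocyte markers ran from 77.6 to 114 CPM in CD24- and from 33.0 to 43.6 CPM in CD24+ libraries, most of it Cd68 and Cd14. Of the 3 tested, Cd68 and Itgam were lower in CD24+ cells and Cd14 was not called, at 31.7 ± 1.17 and 27.9 ± 5.02 CPM (SD, n = 3 each). Cd68 fell from 64.6 ± 18.4 to 8.15 ± 1.25 CPM (SD, n = 3 each), and Itgam had 36, 47 and 29 reads in CD24- and 0, 0 and 1 in CD24+ libraries, with 33.6% of its reads matching it alone. Of 7 fibroblast markers 5 were tested and each was called higher in CD24+ cells, with Lum and Thy1 at 0. Pdgfra still overlapped, with 8.43 CPM in CD24- replicate 2 and 8.34 CPM in CD24+ replicate 1. The fibroblast sums were 9.24 to 25.1 CPM in CD24- and 109 to 196 CPM in CD24+ libraries. Most of the CD24+ sums was Col3a1, with 161, 90.0 and 176 CPM. Col1a1, Col1a2 and Dcn had CD24+ means of 3.19 CPM or less. Of 6 basal epithelial markers 1 was tested, Acta2, which was higher, with sums of 0.421 to 1.35 and 6.61 to 14.04 CPM. Of 6 endothelial markers 2 were tested. Cdh5 was lower and Tek was not called, but 3 of the 63 reads under Tek matched it alone and 48 matched Larp4. With these reads the endothelial sums were 2.25 to 3.98 and 0.681 to 1.89 CPM, with Emcn and Cldn5 at 0. The 10 luminal markers summed to 1942 to 2124 and 818 to 950 CPM, with 4 of 5 tested lower and Cldn3 higher. These counts stand beside 23.8% called higher and 22.3% called lower over all tested genes. Of the markers called, Itgam, Dcn, Acta2, Cdh5 and Cldn3 passed the filter through their higher group alone. Col1a1 and Col1a2 each reached its level in 3 CD24+ libraries and 1 CD24- library, so their higher group was enough to pass them. The part of these differences in the chemokine values was not tested.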

How the data were processed

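Per the labels and the methods, reads of 51 nt were cut to 47 nt, identical reads were collapsed, and each distinct sequence was mapped to the mouse genome (mm9) by exact match and given one annotation. The authors deposited its count in each library, neither normalized nor pooled; neither mapper nor annotation source is named (not given in the sources used here). Here counts were summed per gene annotation, leaving out reads with no annotation (16.9% to 20.2%) or annotated to repeats or small RNA (8.03% to 10.6%). Genes were tested with edgeR 4.0.16 in R 4.3.3 (filterByExpr, TMM, quasi-likelihood, Benjamini-Hochberg over 11125 genes, threshold 0.05). The standard error is the log2 fold-change over the square root of F. Intervals of pooled ratios are exact and, like the limit of 3 reads, cover counting error only; reads carry no molecular identifiers. DESeq2 1.42.0 and limma 3.58.1 served as alternatives. Reads were also matched to GENCODE M21 transcripts by exact sequence on either strand, since the kit marks no strand. On simulated counts of 11025 genes, of which 200 changed 4-fold, edgeR recovered 100% and called 0.139% of unchanged genes. The changed genes were drawn above a mean CPM that Cxcl16 and Ccl7 do not reach, so the recovery does not give the power for the members.

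The 10 members, the gene lists and the tests were chosen with earlier results of these data known. Named genes are the members, Cd24a, other chemokine ligands and receptors that passed the filter, and the members' own receptors and sheddases. The 2 largest rises and falls called in each pathway list are named too. So are the 5 genes nearest to the member with the highest mean CPM over all libraries, and the 5 nearest to the most changed member. Both sets were taken among genes averaging 3 or more on the log2 CPM scale. The rest of any short list named in full, Ccl20, Ccl17, Ccl27a, Cxcl17, the cluster neighbours, Rela, Nfkb1 and the cell type markers were added after their values were seen. Within each group every pair of libraries differed beyond counting noise. The chi-square over its degrees of freedom was 1.75 for CD24- replicates 1 and 2, and 9.69 to 15.9 for the other pairs. That comparison does not show how far the plates were independent, and each library is taken as 1 replicate. Sequences were taken from RefSeq (GRCm38.p6) and positions from GENCODE M21 (GRCm38), except read positions, which are mm9 as deposited.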

Additional observations from a re-analysis of the deposited data

How the results depend on the processing

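A filter of at least 1 CPM in 3 libraries gave the same values as the main run. The tallies below include its entries, all of them unchanged, so these entries are no further test. A minimum log2 fold-change reused the main fit, so it could not change a direction. Of 153 counts of called genes or members recomputed under the alternatives, 136 stayed within 1.5 times. That limit takes in a fall from 3 to 2 members called lower. None of the 6 tested members changed direction under any alternative run, and 91 of 102 member fold-changes kept their side of the threshold. The causes of the exceptions were not tested unless stated. A minimum log2 fold-change of 1, which itself removes genes, left 1600 genes called against 5130, 1 member lower, 4 NF-kB and innate signalling genes, 2 interferon signalling genes and 5 shedding and retention genes. Without a filter beyond 1 read, 6 other ligands were called, as more genes were tested. With each distinct sequence once 1 receptor and 7 shedding and retention genes were called, with libraries thinned to the shallowest 1 receptor, and with reads of a single GENCODE M21 gene, an alternative chosen after seeing the data, 1 receptor, and 3 members did not overlap. With each library left out, called genes ranged from 4069 to 5358, members higher from 1 to 2, members lower from 2 to 4, members not overlapping from 5 to 6, other ligands from 1 to 2, receptors from 2 to 3, NF-kB and innate signalling genes from 10 to 14, interferon signalling genes from 4 to 6 and shedding and retention genes from 10 to 11. With CPM quantile-normalized and 10 added before the log, Ccl7 passed (adjusted p = 0.0499, limma) at a log2 fold-change of -0.23, while that of Cxcl16 was -0.24 and that of Cxcl5 0.94; an added constant shrinks the fold-change of low genes by construction. Thinned, Ccl7 was at -0.17. Members not overlapping numbered 4 under DESeq2, library totals without TMM, median-of-ratios size factors in edgeR and each distinct sequence once. Of the called genes 51.7% were higher, and 45.8% to 58.1% under other scalings and counts with no fold minimum.

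Replicate numbers are those of the sample titles. Libraries with the same number had deviations from their group means correlated at 0.0143, -0.251 and -0.309. Other pairings were not compared, so whether the numbers pair the plates was not tested. A replicate block gave 4493 called genes and 2 members higher, Cx3cl1 besides Cxcl5 (adjusted p = 0.0471, edgeR). Depth limits Cxcl2, Cxcl10, Cxcl12 and Ccl5, for which 3 reads correspond to 0.157 to 0.472 CPM in a library. Pooled ratios of low-count genes were also recomputed with each library left out and on reads of a single gene, a choice made after seeing the data.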
